A study of Homo sapiens with 10 samples.

Results

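Introns with a high share of unspliced reads were described in A549, a human lung adenocarcinoma cell line, before and after inhibition of transcription. An intron entered the set if it matched an annotated intron over 120 and under 20000 nt, had at least 20 split reads over both DMSO libraries, and had an unspliced share of at least 0.2 in the pooled DMSO reads and of at least 0.1 in each DMSO library. The unspliced share is the number of reads crossing the donor or the acceptor boundary without splicing, divided by the sum of these reads and 2 times the split reads (reads that join both exons), so that it runs from 0 for an intron always removed to 1 for an intron always kept. The rule selected 1011 introns of 808 genes, which are 1.86% of the 54388 introns of that length range with at least 20 split reads in DMSO. Another 20 introns met the pooled share and missed the minimum in 1 of the libraries.

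Poly(A)+ RNA was sequenced in 5 conditions with 2 libraries each. The control cells received DMSO. The treated cells received α-amanitin, a fungal poison that blocks RNA polymerase II directly, at 1 μg/mL (low dose) or 2 μg/mL (high dose) for 24 h, or DRB, which blocks transcription elongation through CDK9 and related kinases, at 10 μg/mL (low dose) or 25 μg/mL (high dose). The durations of the DRB and DMSO treatments are not given in the sources used here, the labels name no engineered allele, and the study's methods speak of bioreplicates without saying whether these were separate cultures, so p-values measure only the spread between these libraries, which may be technical.

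Splicing removes introns in most human mRNAs, and an intron that stays in a polyadenylated transcript is said to be retained. Retained introns are known to be short and rich in G and C, and many transcripts that keep them stay in the nucleus until they are spliced or degraded. Genes of the splicing machinery are well known for regulated retention, as in the SR proteins, which bind exons and guide the spliceosome, and in the CLK kinases that phosphorylate them.

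The splice sites of 6 introns are shown because the results below turn on them, together with the only intron of the set that begins with the donor letters GTATCCTT of the minor (U12-type) spliceosome. The sequences were read from the GRCh37 genome, 5′ to 3′ on the transcribed strand. A donor line holds the last 10 exon bases and the first 20 intron bases, with the first 6 intron bases in capitals, and an acceptor line holds the last 20 intron bases and the first 10 exon bases, with the last 3 intron bases in capitals. For the CUEDC1 donor the capitals mark the first 8 intron bases. The positions of each intron on GRCh37 stand in brackets.
ARGLU1 intron 2 donor (chr13:107209480-107211779, minus strand): agctagagagGTAACGctcggtcgtttgga
ARGLU1 intron 2 acceptor: taacatatcctccccttTAGgaggaagaac
LENG8 intron 15 donor (chr19:54969701-54971945, plus strand): tgatcaaaacGTATGTggtgccaagctccc
LENG8 intron 15 acceptor: ttctcctcttgtctccaTAGcttccgccct
HNRNPH1 intron 3 donor (chr5:179048037-179048242, minus strand): tatgttgaagGTTTGAtttacattgcccta
HNRNPH1 intron 3 acceptor: attctaagcacctctttCAGtattcaagtc
MAT2A intron 7 donor (chr2:85769871-85770023, plus strand): tcttgttcagGTATACactctttatataac
MAT2A intron 7 acceptor: cgacatttgaatcctttTAGgtctcttatg
SRRM2 intron 12 donor (chr16:2819286-2820352, plus strand): gcgagcggagGTGAGTgctgtcttgcctga
SRRM2 intron 12 acceptor: ggtcctactgtgttcccCAGgtcccgcagc
BAX intron 5 donor (chr19:49464172-49464788, plus strand): gggtggttggGTGAGActcctcaagcctcc
BAX intron 5 acceptor: actgatgtccctgtctcCAGgacggcctcc
CUEDC1 intron 8 donor (chr17:55944777-55945510, minus strand): agcatcagtcGTATCCTTtccagcctggca
CUEDC1 intron 8 acceptor: tttcctgaatggcctggCAGgctgggggct

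The donor letters GTAAGT and GTGAGT, searched as the first 6 intron bases on the transcribed strand, opened 23.2% of the 1011 introns and 28% of all 54388 introns. Only the donor of SRRM2 carries either of them among the introns printed. Intron letters of the minor spliceosome were rare in the set. ATATCCTT or GTATCCTT opened 2 of its introns, in CUEDC1 and HSBP1L1, against 243 of all introns, or 0.2% against 0.45%.

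The libraries listed 45513 to 90955 introns with 2899344 to 6498515 split reads. Unspliced reads made up 15.28% and 24.21% of the reads at introns in DMSO, where each split read counts for both boundaries, 16.4% to 26.78% in the other conditions except high-dose DRB, and 34.7% and 50.69% at high-dose DRB. These percentages sum reads over all listed introns, annotated or not, so that introns with many reads weigh most. Over introns with at least 20 split reads in DMSO, the mean share was 0.0299 and 0.0198 at high-dose DRB and 0.0130 to 0.0181 elsewhere. At high-dose DRB 78.6% and 83.9% of those listed stood at 0. The high-dose DRB libraries listed the fewest introns (45513 and 60620). No intron is listed with fewer than 3 split reads, and no boundary count above 0 is below 3, so that a share of 0 can hide up to 2 reads per boundary. Of the 8 marker genes of the line, 7 had split reads (3856 to 6038 per 1000000 split reads in all, with KRT19 at 0 throughout), and of the 7 markers of other cells only COL1A1 was above 0. AKR1B10 and AKR1C1 of the line were at 0 in both high-dose DRB libraries. COL1A1 reached 157.5 per 1000000 in DMSO replicate 1, against 16.5 for AKR1B10 and 76.3 for AKR1C1 there, and 12.4 in replicate 2.

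Retention of a whole intron leaves unspliced reads at both of its ends, and the data went against the name "retained" for a large part of the set. In 412 introns all unspliced reads lay at 1 boundary, with none at the donor in 241 and none at the acceptor in 171. Of the 1011 introns, 810 (80.1%) had a boundary inside an annotated exon that ends within the intron, as happens with an alternative splice site or an alternative first or last exon, compared with 28.7% of all 54388 introns. In the 163 introns where this was so for the donor only, a median of 100% of the unspliced reads lay at the donor, and in the 217 where it was so for the acceptor only, the median was 0%. Where the intron lay whole inside 1 annotated exon and no exon ended within it (86 introns), the median was 50.0%. The set is therefore called here introns with a high unspliced share, and 2 classes were kept apart. Both-boundary introns, 307 of 258 genes, are those that also met every share of the rule when the unspliced reads were taken as 2 times the smaller of the boundary counts. An intron with many reads at 1 boundary can still meet this with fewer reads at the other, so that the class does not require equal counts. Of the 307, 235 (76.5%) still had a boundary inside an annotated exon that ends within the intron, beside 81.7% of the rest of the set. The other 704 owe their share to reads at 1 boundary at least in part. This division was made after the values were seen.

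**Figure D1:**
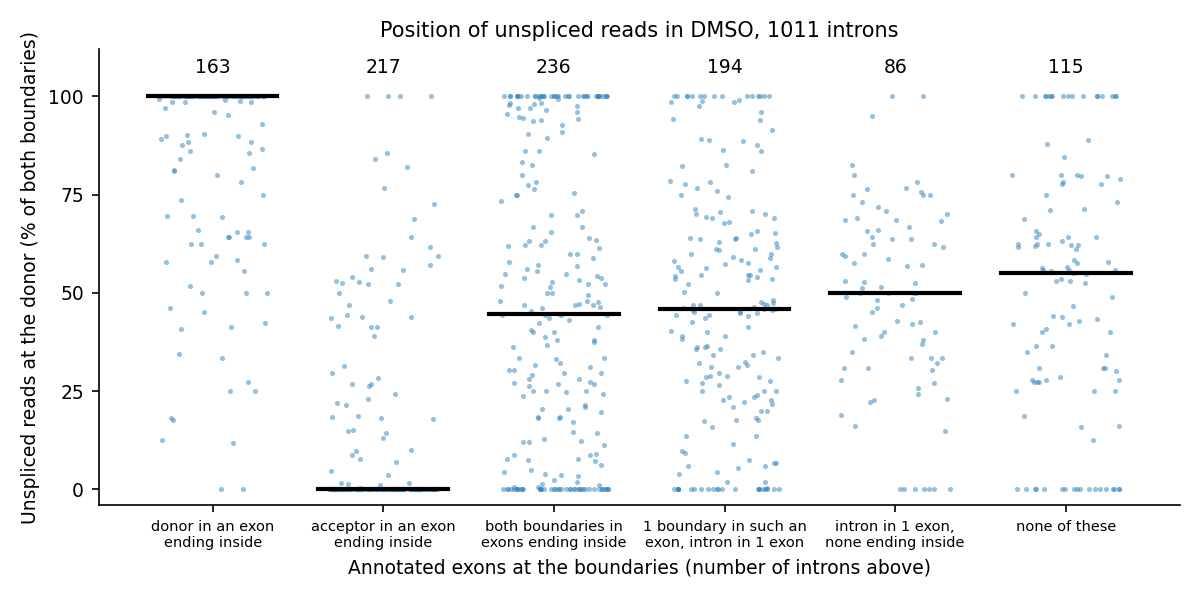
Each point is 1 of the 1011 introns, grouped by the annotated exons at its boundaries, and the vertical axis gives the percentage of its unspliced DMSO reads that lie at the donor boundary, with black bars for medians. Introns with the donor in an exon ending inside lie near 100% and those with the acceptor in such an exon near 0%, while introns inside 1 exon are spread around 50%.

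Some introns had boundary counts that tracked the split reads themselves. In 25 introns 1 boundary had no unspliced read and the count of the other was within 5% of the split reads, which fixes the share near 1/3. MEG3, a long noncoding RNA, is an example. Its intron 2 (chr14:101295154-101295370) had 69 acceptor reads, no donor reads and 70 split reads in DMSO, and its share lay between 0.32 and 0.34 in all 10 libraries. An intron of SDAD1 (chr4:76877290-76878477) had 79 acceptor reads against 83 split reads and stayed at 0.32 to 0.33 in every library.

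Reads shared by near-identical genes also entered the set. Counts in all libraries were identical for 44 introns with those of another intron of the set, in 20 groups of which 18 spanned genes, so that these introns are not separate measurements. IKBKG and its pseudogene IKBKGP1, and CBWD5 and CBWD6 of the ZNG1 family, are such pairs. Of the 1011 introns, 153 had an antisense gene at a boundary, and no source used here says whether the counting used the strand.

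The introns with a high unspliced share were short and GC-rich beside all introns with at least 20 split reads. Their median length was 845 nt (628 nt for both-boundary introns) against 1450 nt for all introns, and their median GC content was 51.0% (54.5% for both-boundary introns) against 43.1%. They lay at the ends of transcripts more often. The first intron of its transcript made up 20.4% of the set and 7.7% of all introns, and the last intron 20.1% against 10.9%. Introns of 5′ UTRs made up 15.3% of the set against 2.7%, and those of 3′ UTRs 6.4% against 1.0%. Only 53.5% belonged to the main (canonical) transcript of the gene, compared with 96.2% of all introns, and 25.2% lay in a transcript annotated as retaining an intron, compared with 7.5%. Position and UTR were read from the canonical transcript where it holds the intron, and from another transcript otherwise. The set leans more on other transcripts than all introns do, so its positions are not a like comparison. These are descriptions over introns that share genes and libraries, and no test was made.

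Alternative junctions were common as well. In 25.9% of the set the annotated junction held under 50% of the split reads at its own ends, the rest going to other donors or acceptors, and this was so for 1.6% of all introns. The both-boundary introns differed from the rest of the set in position, with 59.6% lying whole inside 1 annotated exon against 25.3%. Most host genes gave 1 intron (661 genes), 108 gave 2 and 39 gave 3 or more. HNRNPH1 had 7, EIF4A2 had 6, and ARL6IP4, SNHG1 and CNTNAP3 had 5 each. The remaining introns of the same genes were mostly spliced, since 74.3% of 6463 had a share of 0 in DMSO, compared with 83.5% of all introns.

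The unspliced share in DMSO chose the set, so its level is given as a description. The median was 0.333, with quartiles of 0.253 and 0.496, and the highest was 0.986. The highest shares came from introns with many reads at 1 boundary. Intron 3 of MYL6, a myosin light chain, stood at 0.986 with 3659 donor and 30 acceptor reads against 26 split reads. The ribosomal protein genes RPS16 (0.983), RPL27A (0.978) and RPL13A (0.976) and the methyltransferase cofactor TRMT112 (0.965) followed, and in each of them nearly all unspliced reads lay at 1 boundary. TRMT112 had the lowest share of the 5 in any library, 0.933. Just inside the threshold lay introns of ZC3HAV1, MXD3 and TP53I3 at 0.20, and just outside it introns of BRAT1, HNRNPA1 and DUS1L at 0.198.

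Both-boundary introns free of any exon ending inside and of other genes (61 introns of 57 genes) have reads at both ends and no annotated exon ending inside them. Of these, 28 (45.9%) lay whole inside 1 annotated exon, whose reads count as unspliced at both boundaries. H2AX, which encodes the histone variant phosphorylated at DNA breaks, had the highest of these shares, with 123 donor, 199 acceptor and 22 split reads in DMSO (shares of 0.907 and 0.860). The intron of TGOLN2, a protein of the trans-Golgi network, had 76 donor and 79 acceptor reads against 20 split reads (shares of 0.796 and 0.793). Intron 3 of CACNG7, a calcium channel subunit, had 131 and 71 boundary reads against 100 split reads, and intron 2 of ARGLU1, an arginine- and glutamate-rich splicing regulator, had 74 and 34 against 52. Intron 7 of MAT2A, an S-adenosylmethionine synthetase gene, had 77 and 43 against 146, with shares of 0.417 and 0.198 in the DMSO libraries. MAT2A is listed here among genes widely described to keep an intron, by gene and not by intron. The neighbouring intron of MAT2A, described below, was also in the set. Between the DMSO libraries the introns of the whole set differed by a median of 0.073 in share, and 554 were higher in replicate 1 and 447 in replicate 2.

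The 11 gene lists used here were drawn up with earlier results of these data known and are described by counts only. Of the introns with at least 20 split reads, 28 of 160 in snoRNA host genes had a high unspliced share (17.5%), as did 11 of 75 in SR protein genes (14.7%), 9 of 99 in SR protein kinases and cyclin L genes (9.09%), 6 of 63 in genes widely described to keep an intron (9.52%), 35 of 423 in hnRNP and related genes (8.27%) and 29 of 349 in ribosomal protein genes (8.31%). The share over all genes was 1.86%, and core spliceosome genes (15 of 664, 2.26%) lay near it. Zinc finger genes (3 of 242), RNA polymerase II and elongation factor genes (2 of 348), aminoacyl-tRNA synthetase genes (2 of 406) and mRNA export and decay genes (0 of 275) lay below it. The lists overlap. Among the genes widely described to keep an intron, the 2 introns of SRSF5 also count as SR protein introns, and the 1 of CLK1 also counts under SR protein kinases. Split between the classes, 16 of the 28 introns in snoRNA host genes and 5 of the 11 in SR protein genes were both-boundary introns.

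**Figure D2:**
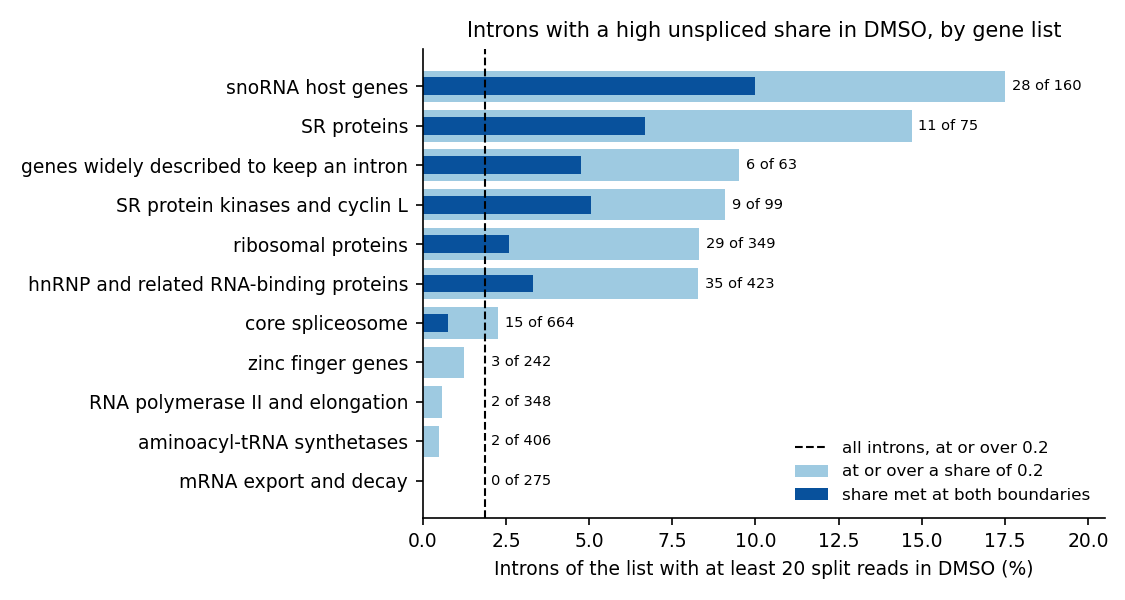
Bars give, for each gene list, the percentage of its introns with at least 20 split reads in DMSO that had an unspliced share of at least 0.2 (light) or met it at both boundaries (dark), with counts beside the bars and the value for all introns (1.86%) as a dashed line. snoRNA host genes (17.5%) and SR proteins (14.7%) stand highest, and mRNA export and decay genes at 0.

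Among SR protein genes, SRSF7 intron 5 (0.905; 481 donor and 17 acceptor reads against 26 split reads) and SRSF2 intron 4 (0.889; 164 and 443 against 38) had the highest shares, followed by SRSF11 (0.797) and SRSF10 (0.651), whose reads lay almost wholly at the acceptor. Among the kinases and cyclins, an intron of CCNL2 stood at 0.669 in DMSO and introns of CLK2 and CCNL1 at 0.512 and 0.440. HNRNPC (0.960, 1666 acceptor and no donor reads) and HNRNPH1 intron 4 (0.957, 81 donor and 856 acceptor reads against 21 split reads) led the hnRNP genes, and DDX39B (0.905, no donor reads) and the branch point binding protein SF1 (0.790) led the core spliceosome genes. Among snoRNA host genes, GAS5 intron 9 stood at 0.848 with 116 donor and 119 acceptor reads, SNHG29 at 0.796, SNHG32 at 0.733 and the last intron of EIF4A2, an RNA helicase of translation initiation, at 0.671 with 134 and 103 reads.

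The shares across conditions are a description for the whole set, since both DMSO libraries chose it. The median difference from DMSO in pooled share was -0.0048 at low-dose α-amanitin and -0.0190 at the high dose, and -0.0344 at low-dose DRB and -0.0791 at the high dose. Leaving out 1 library turned the first of these to 0.0077 (without low-dose α-amanitin replicate 2) or 0.0022 (without DMSO replicate 1). In the both-boundary introns the corresponding medians were -0.0094, -0.0343, -0.0389 and -0.1668, and in the other introns -0.0026, -0.0161, -0.0320 and -0.0406. At high-dose DRB only 782 of the 1011 introns were listed in any library, and each library left out 413 or 240 of them, while 4 to 42 were missing in the other treated libraries.

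Per library, the median share of the both-boundary introns was 0.419 and 0.385 in DMSO, 0.421 and 0.404 at low-dose α-amanitin, 0.381 and 0.366 at the high dose, 0.412 and 0.349 at low-dose DRB, and 0.320 and 0.234 at high-dose DRB. The high-dose DRB libraries thus held the lowest medians, and 13.3% and 18.9% of the introns they listed stood at 0 there, against at most 3.0% in any other library. They did not list 111 and 64 of the 307 introns, against at most 10 in any other library. Since listing needs at least 3 split reads, an intron almost wholly unspliced can be missing from these medians. How far this lowered them was not tested. In the other introns the medians were 0.328 and 0.302 in DMSO and 0.336 and 0.294 at high-dose DRB. Of those listed at high-dose DRB, 12.4% and 12.1% also stood at 0, against at most 6.2% in any other library.

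**Figure D3:**
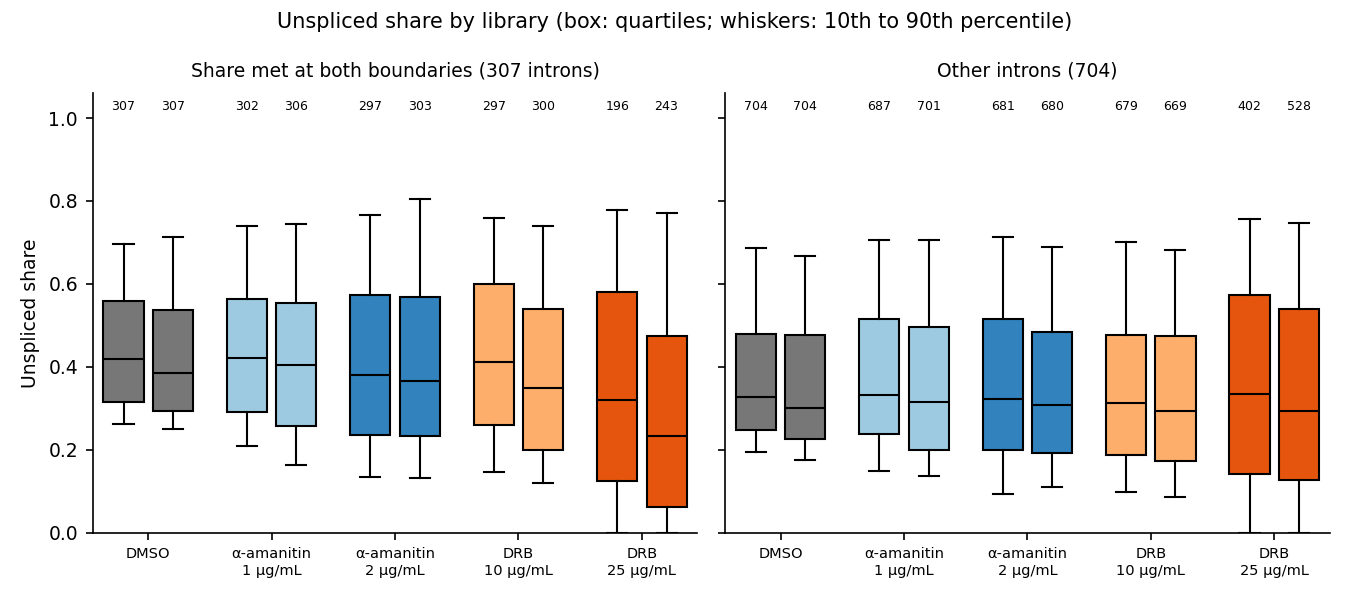
Boxes give the quartiles and medians of the unspliced share (vertical axis) of introns in each library, 2 per condition, with whiskers from the 10th to the 90th percentile and the number of introns listed above. For the both-boundary introns (left) the high-dose DRB libraries have the lowest medians, 0.320 and 0.234, while for the other introns (right) the medians lie between 0.293 and 0.336 in all libraries.

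The introns farthest from DMSO were named by size, with no test. Below DMSO at both doses of α-amanitin and at low-dose DRB stood intron 9 of CPNE7, a copine (chr16:89653511-89655082), with shares of 0.57 and 0.62 in DMSO, 0.42 and 0.22 at low-dose α-amanitin, 0.19 and 0.30 at the high dose, and 0.28 and 0.17 at low-dose DRB. ARGLU1 intron 2 went from 0.569 and 0.455 in DMSO to 0.289 and 0.237 at low-dose α-amanitin and 0.187 and 0.155 at the high dose, and the libraries of these conditions did not overlap those of DMSO. Above DMSO at low-dose DRB stood an intron of MFSD12, a lysosomal transporter (0.81 and 0.87 against 0.36 and 0.41), and intron 4 of RBM42, an RNA-binding protein (0.89 and 0.88 against 0.39 and 0.53, all reads at the acceptor).

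To compare treated with untreated cells on independent reads, introns were selected on DMSO replicate 1 alone and read in DMSO replicate 2. A share of at least 0.2 with at least 10 split reads in replicate 1 selected 1243 introns, whose median share went from 0.316 there to 0.297 in replicate 2 with no treatment. In the reverse choice, replicate 2 selected 1092 introns, whose median went from 0.327 there to 0.353 in replicate 1. The DMSO arm of the test is then 1 library, assumed to vary like the libraries of the other groups, and replicate 2 had the lower percentage of unspliced reads over all introns of the DMSO libraries (15.28% against 24.21%). The quasi-binomial test (unspliced against spliced reads, Benjamini-Hochberg adjusted p of 0.05 over all introns tested) then called 0 of 5707 introns at low-dose α-amanitin (background 0%) and 0 of 5648 at the high dose (background 0%), with 355 and 615 introns at an unadjusted p under 0.05 and 0 calls by limma on the log2 odds as well. At low-dose DRB it called 5 of 948 selected introns lower and none higher, where 0.0939% of all 5325 introns tested were called lower. These were SNRPB intron 6 and intron 3 of ZNG1B, ZNG1C, CBWD5 and CBWD6, near-identical copies of a zinc-dependent GTPase gene that share reads. The 5 calls were lost without either low-dose DRB library and by limma. With replicate 2 choosing and replicate 1 read, 4 of 884 selected introns were lower and none higher at low-dose DRB, and none was called at either dose of α-amanitin.

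At high-dose DRB, 53 of 525 selected introns were called lower (10.1%) and 4 higher (0.762%), while among all 4064 introns tested 3.49% were called lower and 7.75% higher. The 4 higher ones were introns of BAX, SUZ12P1, ARFGAP1 and SRRM2. The median difference in log2 odds was -0.48 for the selected introns and 0.64 for all introns tested. With replicate 2 choosing and replicate 1 read, 56 of 499 selected introns were lower and 8 higher, and the medians were -0.58 for the selected introns and 0.33 for all introns tested. With either high-dose DRB library left out no intron was called, so these calls rest on both. Introns not selected entered the test only with at least 10 unspliced reads over the libraries compared, and can pass that minimum through the group in which they are high. Selected introns not listed in a high-dose DRB library were not tested, and introns almost wholly unspliced there can be among these.

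Comparisons between treated conditions did not use the DMSO reads that chose the set, apart from the estimate of the spread, and were tested on the set itself. Between low- and high-dose α-amanitin no intron was called, 0 of 912 in the set and 0 of 7121 in all (background 0%), with 676 of all and 51 of the set at an unadjusted p under 0.05, and 0 calls by limma. The median difference in log2 odds was -0.12 for the set and -0.13 for all introns.

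The doses of DRB gave the most calls of the 4 contrasts between treated conditions. At the high against the low dose, 81 of 493 introns tested in the set were lower (16.4%) and 28 higher (5.68%), whereas 8.03% of all 5031 introns tested were lower and 15.2% higher. Introns outside the set can pass the minimum of 10 unspliced reads through the group in which they are high. The direction of the calls over all introns may therefore follow in part from this minimum. Of the both-boundary introns, 48 of 167 were lower (28.7%) and 10 higher (5.99%), beside 33 lower and 18 higher of the other 326. The test needs an intron listed in all 4 libraries, and the high-dose DRB libraries did not list 413 and 240 of the 1011 introns. An intron almost wholly unspliced there can thus be missing from these counts and medians. How far this shifted them was not tested. The median difference in log2 odds was -0.92 for both-boundary introns, -0.15 for the other introns of the set and 0.23 for all introns tested. The log2 odds were computed from pooled counts with a small constant added to unspliced and split reads. For introns at 0 unspliced reads in 1 condition, the size is thus set by that constant and the split reads. In the fit with an offset per library, given below, such introns have a value of no fixed size and enter a median by rank only. Among the 26 both-boundary introns free of any exon ending inside and of other genes, 7 were lower, none was higher, and the median was -0.96. With only the 4 libraries compared in the fit no intron was called (lowest adjusted p = 0.0595 by the quasi-binomial test, with 1468 of all and 140 of the set at an unadjusted p under 0.05), and leaving out 1 of the 4 libraries left 62 and 58 calls in the set without low-dose replicate 1 and 2, and 36 and 33 without high-dose replicate 1 and 2. The high-dose DRB libraries also had the highest percentage of unspliced reads over all introns (34.7% and 50.69%). With an offset per library for the overall level of unspliced reads, 94 introns of the set were lower and 19 higher, beside 554 lower and 771 higher of all introns, and the medians were -1.11 for both-boundary introns, -0.52 for the set and 0.03 for all introns.

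**Figure D4:**
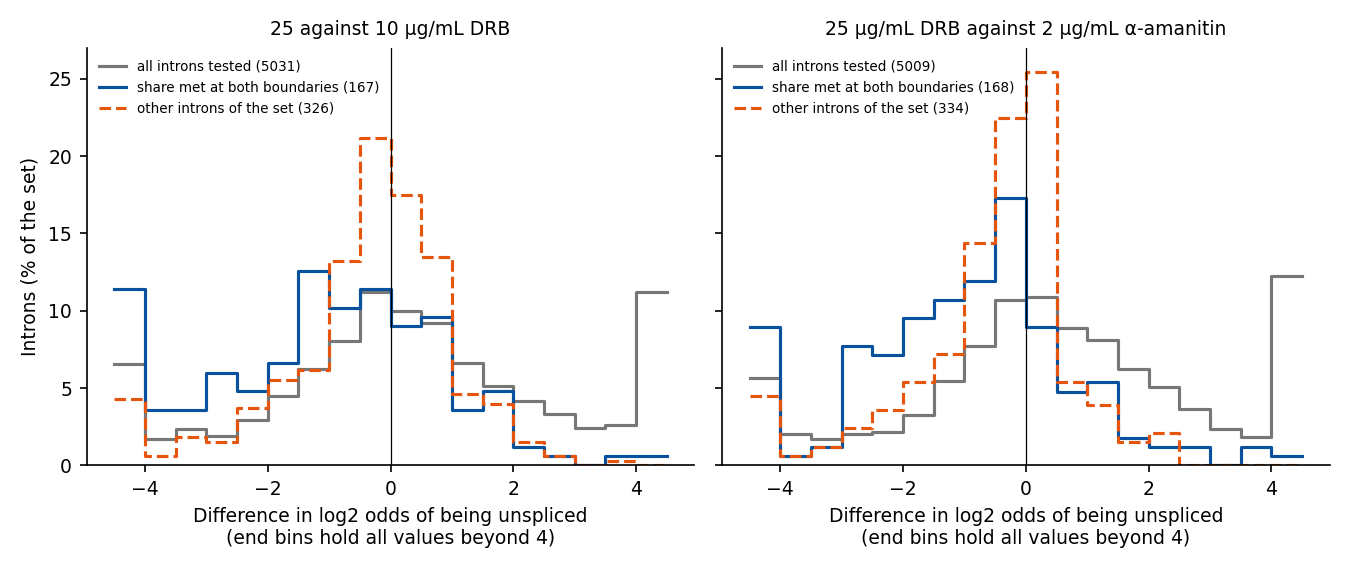
Lines give the distribution of the difference in log2 odds of being unspliced, in bins of 0.5, as a percentage of the introns in each set, for high- against low-dose DRB (left) and high-dose DRB against high-dose α-amanitin (right). Both-boundary introns lie to the left of all introns tested, with medians of -0.92 against 0.23 (left) and -0.82 against 0.42 (right). Introns not listed in all libraries compared are left out. Introns outside the set can pass the minimum of 10 unspliced reads through the group in which they are high.

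LENG8 intron 15 held 111 and 87 unspliced reads against 42 and 21 split reads at low-dose DRB, and 19 and 21 against 122 and 182 at the high dose. Its share was 0.569 and 0.674 at the lower dose and 0.072 and 0.055 at the higher, with no overlap, and the log2 odds differed by -4.55 ± 0.45 (SE; quasi-binomial test, adjusted p = 0.000551). In DMSO it stood at 0.566 and 0.596. ARGLU1 intron 2 had shares of 0.363 and 0.339 at the low dose and 0.043 and 0.000 at the high dose (-4.82 ± 0.99, adjusted p = 0.00276). Its unspliced reads came to 12.4 and 8.52 per 1000000 split reads at the lower dose and 1.38 and 0 at the higher, beside 10.9 and 8.32 split reads per 1000000 against 15.5 and 13.9.

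PPIA, which encodes cyclophilin A, had an intron of the 5′ UTR region (intron 2, chr7:44838504-44838845) at 0.849 and 0.750 at the low dose and 0.079 and 0.063 at the high dose (-5.78 ± 0.70, adjusted p = 0.00076). The libraries of the lower dose were above both DMSO libraries (0.516 and 0.494) and those of the higher dose below them. HNRNPH1 intron 3 stood at 0.425 and 0.358 against 0.080 and 0.017 (-3.80 ± 0.99, adjusted p = 0.0149). AMIGO2, an adhesion protein, had 26 and 10 unspliced reads against 42 and 24 split reads at the low dose, and 0 against 321 and 344 at the high dose (adjusted p = 0.000639), beside 10.6 and 4.87 split reads per 1000000 at the low dose and 111 and 66.5 at the high dose, which were not tested on their own. Introns of LAMB2, a laminin chain, and WTAP, a subunit of the m6A methyltransferase complex, were also at 0 unspliced reads in both high-dose libraries, against 30 and 41 reads in LAMB2 and 32 and 60 in WTAP at the low dose (adjusted p = 0.0029 and 0.000623). In WTAP all unspliced DMSO reads lay at the donor.

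Splicing factor introns were among those lower at the high dose. The last intron of SF1 went from 0.662 and 0.590 at the low dose to 0.333 and 0.170 (-2.58 ± 0.42, adjusted p = 0.00414), and SRSF2 intron 4, in the 3′ UTR, from 0.939 and 0.929 to 0.676 and 0.395 (-3.39 ± 0.68, adjusted p = 0.0102). Of the 30 introns of hnRNP and related genes tested, 6 were lower and 1 higher, with a median of -0.80, and of the 8 of SR protein genes 2 were lower and none higher. The snoRNA host genes had 2 lower and 1 higher of 23, and ribosomal protein genes 3 lower and none higher of 20. Core spliceosome genes had 2 lower and 1 higher of 11, and none was called of 6 in SR protein kinases and cyclin L genes, of 5 in genes widely described to keep an intron, of 2 in RNA polymerase II genes, of 2 in zinc finger genes and of 1 in aminoacyl-tRNA synthetase genes. These small counts stand beside 8.03% lower and 15.2% higher of all introns tested. The medians were -0.80 for hnRNP, -0.78 for snoRNA host, -0.62 for SR protein and for kinase and cyclin L, -0.49 for ribosomal protein, -0.34 for core spliceosome, -0.33 for widely described, -0.15 for synthetase, 0.26 for RNA polymerase II and 0.30 for zinc finger genes, and -0.31 for the whole set.

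The 28 introns that were higher at high-dose DRB included SRRM2 intron 12, of a spliceosome-associated protein of nuclear speckles. It had 25 and 13 unspliced reads against 46 and 49 split reads at the low dose, and 114 and 104 against 6 and 7 at the high dose, for shares of 0.214 and 0.117 against 0.905 and 0.881 (5.33 ± 0.55, adjusted p = 0.000492). All other libraries, DMSO included, lay between 0.238 and 0.40. CHMP2A, a subunit of the ESCRT-III complex, went from 0.155 and 0.114 to 0.836 and 0.614 (3.94 ± 0.68, adjusted p = 0.00414), and BAX intron 5, of the pro-apoptotic BCL2 family member, from 0.380 and 0.410 to 0.684 and 0.663 (1.63 ± 0.20, adjusted p = 0.00183). In BAX the unspliced reads were 60.3 and 62.5 per 1000000 split reads at the lower dose and 55.2 and 46.4 at the higher, and the split reads 49.2 and 45.03 against 12.8 and 11.8. Among the 28, 5 were the copies of the ZNG1 gene, which share reads.

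**Figure D5:**
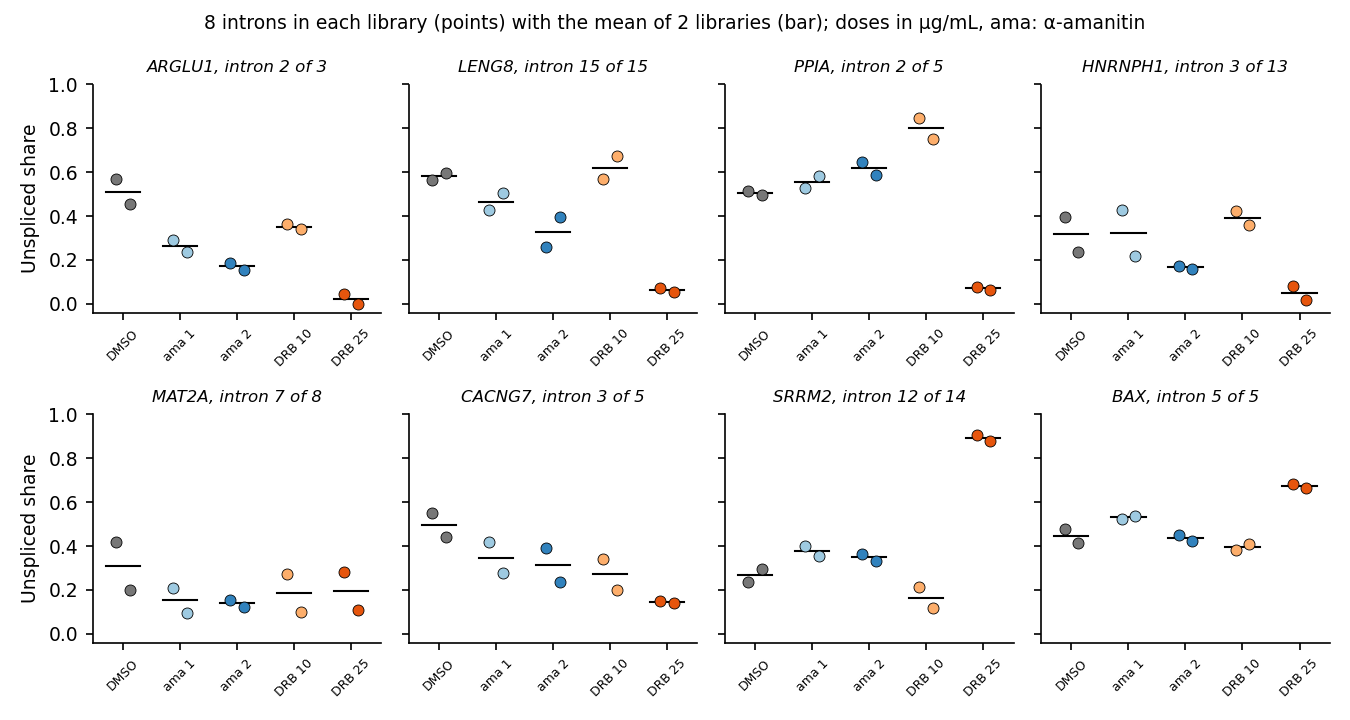
Points give the unspliced share (vertical axis) of 8 introns in each library and bars the mean of the 2 libraries of a condition. ARGLU1, LENG8, PPIA and HNRNPH1 are lowest at high-dose DRB, SRRM2 and BAX are highest there, MAT2A spreads as widely within DMSO (0.417 and 0.198) as between conditions, and CACNG7 lies between 0.141 and 0.549.

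Unspliced and split reads were also set side by side, with no test. For the 182 both-boundary introns listed in all 4 libraries, unspliced reads had a median of 3.91 per 1000000 split reads at high-dose DRB and 7.60 at the low dose, with a median log2 ratio of -0.82, and 129 introns were lower and 53 higher. Split reads had medians of 5.46 and 5.93 on the same scale, with 91 introns higher and 91 lower. In bulk RNA, fewer cells with such transcripts and fewer such transcripts per cell cannot be told apart.

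The highest doses of the drugs were compared as well, with the same high-dose DRB libraries. Against high-dose α-amanitin, 80 of 502 introns of the set were lower (15.9%) and 12 higher (2.39%), where 5.99% of all 5009 introns tested were lower and 14.3% higher. The limit set by the minimum of unspliced reads holds for all introns here too, as does the limit from introns not listed at high-dose DRB for the set. Of the both-boundary introns, 39 of 168 were lower (23.2%) and 5 higher (2.98%), and the medians were -0.82 for these and 0.42 for all introns tested. Some lower calls are copies with the same or nearly the same shares and are not separate measurements. They include introns of NPIPA1, NPIPA5, NPIPA7 and NPIPA9, of POLR2J3 and POLR2J4, and a both-boundary intron of AKAP17A counted on both X and Y. Of the 27 both-boundary introns free of any exon ending inside and of other genes, 7 were lower and none higher. LENG8 intron 15, with 80 and 61 unspliced reads against 115 and 47 split reads at high-dose α-amanitin, stood at 0.258 and 0.394 there, above its 0.072 and 0.055 at high-dose DRB (-2.71 ± 0.41, adjusted p = 0.0032). CREBZF intron 2, of a transcription factor, had shares of 0.517 and 0.659 against 0.355 and 0.170 (-2.09 ± 0.62, adjusted p = 0.0394). With only the 4 libraries compared no intron was called here either (lowest adjusted p = 0.0684), and the set gave 22 and 23 calls without DRB replicate 1 and 2, and 46 and 33 without α-amanitin replicate 1 and 2. With an offset per library, 676 of all introns were higher and 478 lower, and in the set 6 were higher and all other calls lower. These 2 comparisons share the high-dose DRB libraries and are not independent.

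The low doses of the drugs were compared last. Between low-dose DRB and low-dose α-amanitin, 11 of 880 introns of the set were lower with DRB (1.25%) and none was higher, where 0.176% of all 6812 introns tested were lower and 0.0587% higher. The clearest was the last intron of SNRPB, a core Sm protein of the snRNPs, with shares of 0.191 and 0.192 at low-dose DRB and 0.476 and 0.481 at low-dose α-amanitin (-1.95 ± 0.22, adjusted p = 0.0018). Its DMSO shares were 0.489 and 0.481, with 750 unspliced DMSO reads at the acceptor and 4 at the donor, so that the difference rests on acceptor reads. With 2 times the smaller boundary count in its place, the difference was 0.81, in the other direction. ZNG1A, ZNG1B, ZNG1C, CBWD5 and CBWD6 gave 5 of the 11, and the other introns were in NME1-NME2, NGRN, MORF4L2, PADI2 and HNRNPC. No intron was called without any 1 of the 4 libraries, with only those 4 in the fit, by limma, with the smaller boundary count, or with the replicate number as a block (lowest adjusted p = 0.221 by the quasi-binomial test). With an offset per library, 23 of all introns were higher and 18 lower, and in the set 2 were higher and 12 lower.

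MAT2A shows how far the spread between replicates reaches. Intron 7 had shares of 0.417 and 0.198 in DMSO, 0.211 and 0.096 at low-dose α-amanitin, 0.155 and 0.124 at the high dose, 0.273 and 0.10 at low-dose DRB, and 0.281 and 0.108 at the high dose, and none of the contrasts between treated conditions passed the threshold. The neighbouring intron 8 (chr2:85770158-85770792) had 139 reads at each boundary and 341 split reads in DMSO (shares of 0.405 and 0.217). It stood at 0.526 and 0.403 at high-dose DRB, overlapping DMSO, against 0.233 and 0.158 at the low dose (1.85 ± 0.61, adjusted p = 0.0531). H2AX was not listed in 1 of the high-dose DRB libraries and stood at 0.455 in the other, against 0.860 to 0.914 in the remaining libraries. CACNG7 intron 3 went from 0.342 and 0.20 at low-dose DRB to 0.148 and 0.141 (-1.11 ± 0.52, adjusted p = 0.151), which did not pass.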

How the data were processed

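Poly(A)+ RNA-seq of 10 A549 libraries was analysed. Per the submitters' processing notes, STAR 2.7.3a was the aligner and GRCh37 the genome, and the authors quantified splicing with IPSA, which filters split reads. The deposited unit, recorded as other, is raw counts held in a text field for each intron, with no normalization (split reads, and unspliced reads at the donor and at the acceptor). The deposited ratio in the same field is 1 minus the unspliced share and was not used otherwise. Positions were matched to GENCODE release 44 mapped to GRCh37 (87.1% of 126404 listed introns).

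Unspliced against spliced reads were tested with a quasi-binomial model over all 10 libraries, which share 1 spread moderated by limma 3.58.1 in R 4.3.3 (floor 1, F test, Benjamini-Hochberg adjustment over all introns tested, threshold 0.05). A library that does not list an intron got no weight in its fit. Introns needed to be listed in the 4 libraries compared, a denominator of 20 in each, and 10 unspliced and 10 spliced reads over them. In the tests against DMSO, the DMSO library that chose the introns was left out of both the fit and these minimums. Reads were scaled to 1000000 split reads per library, with a pseudocount of 0.5 on that scale in log2 ratios. On data simulated for high- against low-dose DRB, the share of false calls was above the threshold. Depth, 2899344 to 6498515 split reads per library, limits introns with few reads.

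The set, the gene lists and the tests were chosen with earlier results of these data known. Introns were named by rule: the highest shares (with at least 50 split reads and no other exon or gene, and of all), up to 5 rises and 5 falls per contrast past the threshold without overlap, up to 5 above and below DMSO per condition, up to 4 per gene list, those next to the threshold, and U12-type donors. Both-boundary introns and their leading examples were added after the values were seen. The alternatives were another filter, limma on log2 odds, fewer libraries, a replicate block, an offset per library, and 2 times the smaller boundary count. Columns not of samples: none (0 left out). Of the introns named by these rules, 1 is not reported here.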

Additional observations from a re-analysis of the deposited data

Results flagged for a closer look

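In CLK2, a kinase that phosphorylates SR proteins, intron 4 of 12 (chr1:155238151-155238498 on GRCh37, 348 nt) stood above both DMSO libraries in all 4 α-amanitin libraries and below both in all 4 DRB libraries. Its shares were 0.286 and 0.281 in DMSO, 0.370 and 0.438 at low-dose α-amanitin, 0.355 and 0.294 at the high dose, 0.185 and 0.253 at low-dose DRB, and 0.278 and 0.073 at high-dose DRB. The mean over the α-amanitin libraries exceeded that over the DRB libraries by 0.167. The nearest libraries differed little from DMSO, with 0.294 against 0.286 and 0.278 against 0.281. It was the only intron of those listed in all 10 libraries with this pattern, and the difference between the drugs was not tested. Of the set, 564 introns were listed in all 10 libraries. In DMSO it had 27 donor and 15 acceptor reads against 53 split reads.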

How the results depend on the processing

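The set held 1011 introns under the rule, 307 with 2 times the smaller boundary count, 276 with at least 50 split reads, 604 at a share of 0.3, 97 without introns that have a boundary in an annotated exon or another gene, and 165 without those that have one in an exon ending inside or in another gene (an alternative chosen after seeing the data). Calls in all introns at high- against low-dose DRB (1167, of which 109 in the set) were 223 to 597 (33 to 62) without 1 library, 0 (0) with only the 4 libraries, and 564 in all with the smaller boundary count. For high-dose DRB against high-dose α-amanitin (1016 and 92) they were 143 to 483 (22 to 46), 0 (0) and 514. For low-dose DRB against low-dose α-amanitin (16 and 11) they were 0 (0) without any 1 library, with only the 4 libraries, by limma, with the smaller boundary count and with the replicate block, and 41 with a library offset. Against DMSO replicate 2, the calls at low-dose DRB (5) were 0 by limma and 0 without either library, and those at high-dose DRB (457 in all, 57 selected) were 0 without either library.

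The median difference from DMSO at low-dose α-amanitin lay between -0.0112 and 0.0077 without 1 library, reversed at 0.0077 and 0.0022, and was -0.0321 without introns at annotated exons or other genes. At the high dose it lay between -0.0268 and -0.0192 without 1 library (-0.0248 without high-dose replicate 1), and was 0.0000 with the smaller boundary count, -0.0510 without introns at exons and -0.0343 in both-boundary introns. With the smaller boundary count it was 0.0000 at low-dose and at high-dose DRB, because many introns have a smaller count of 0, and at the high dose it was -0.1094 without introns at exons and -0.1668 in both-boundary introns. With the library offset, calls at high-dose DRB against high-dose α-amanitin split into 676 higher and 478 lower, from 716 and 300, the median of all introns went from 0.42 to 0.06 and that of the set from -0.36 to -0.73, and at low-dose DRB against low-dose α-amanitin they were 23 higher and 18 lower. Of the values of named introns, 155 kept direction and threshold, 84 lost the threshold, and 1 was reversed (SNRPB, 0.81 with the smaller boundary count); the 4-library fit ended each of its 25 calls.

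No label says that a replicate number marks a shared batch, and with 2 numbers the pairing was not taken as given. The deviations of same-numbered libraries correlated positively in all 10 pairs of conditions, by 0.053 to 0.186 over 2938 introns. With the replicate block, 815 introns (80 of the set) were called at high- against low-dose DRB, 753 (70) at high-dose DRB against high-dose α-amanitin and 0 in the comparisons of low-dose DRB and of high-dose α-amanitin with low-dose α-amanitin.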
